A study of Mus musculus with 6 samples.

Results

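The neuronal RNA-binding and splicing regulators examined were 10 genes, Ptbp1, Ptbp2, Srrm4, Nova1, Rbfox1, Rbfox3, Celf3, Elavl2, Elavl3 and Elavl4, of 18201 genes that the platform annotation names alone on a probe set. Members were chosen by name: every probe set whose platform symbol was exactly 1 of these was taken, which gave 29 of 45037 probe sets other than controls. Microarrays measured messenger RNA of flow-sorted ventral mesencephalon cells from mouse embryos of day 12.5, with 3 arrays in each of 2 groups. The positive group held GFP-positive cells of Ngn2-GFP embryos of strain CD1/129, where the green reporter follows Neurog2, a gene that starts neurogenesis, and is labelled as midbrain dopaminergic progenitors. The negative group held GFP-negative cells of Lmx1a-GFP embryos of strain C57BL/6, where it follows a transcription factor that specifies dopaminergic progenitors, and served as the non-dopaminergic reference. Reporter line, strain and sort gate therefore coincided with the group on every array and cannot be told apart. The series' design text calls the replicates biological and does not say whether embryos were pooled.

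The arrays carry the labelled difference. Lmx1a had signals of 78.7 to 169.6 on positive arrays and 1.81 to 9.75 on negative arrays, a direction that the gate set, and Neurog2 had 500.4 to 706 against 334 to 388. Every array was scaled by the authors to a trimmed mean signal of 100, with medians of 18.2 to 25.5, so total RNA content was not measured. Positive replicates 1 and 2 stood apart from the other 4 arrays in control probe sets. Their hybridization spike-ins averaged 2293 and 2352 against 4254 to 6560, and 18S ribosomal RNA averaged 3713 and 3696 against 7241 to 9276. Gapdh, whose probe sets along the message track RNA integrity, had 3' over 5' ratios of 4.41 and 4.73 there and 5.94 to 9.21 elsewhere. The name spike-in batch is used for this split, whose lower side held positive arrays alone. In sorted bulk RNA, fewer cells of a type and less RNA per cell cannot be told apart.

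These proteins set which exons neurons include and how long neuronal messages last. PTBP1, the polypyrimidine tract binding protein of neural progenitors and non-neural cells, represses neuronal exons and keeps its paralogue PTBP2 low by exon skipping in the Ptbp2 message. Newborn neurons lose PTBP1, gain PTBP2, and switch on SRRM4, NOVA, RBFOX, CELF and neuronal ELAVL (Hu) proteins. The comparison therefore sets the progenitor repressor Ptbp1 against the neuronal regulators in both populations. Arrays of this kind read the amount of message at the probes, not exon choice, and they do not measure the proteins.

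None of the 10 regulators passed the test between the sorted populations. All 10 genes passed a filter for dim probe sets (a signal above the 40th percentile of the array on at least 3 arrays), with the probe set of highest mean signal standing for each gene. By limma with Benjamini-Hochberg adjustment over 12047 genes, 0 of 10 had an adjusted p under 0.05, against 1.06% of all genes tested, and the lowest adjusted p was 0.331, for Srrm4. At an unadjusted p under 0.05 there was 1 member, or 10% of them, against 10.8% of all genes tested. The 10 log2 differences, positive minus negative, ran from -0.38 to 0.90 with a median of -0.06, and the median over all genes tested was 0.03. Their median absolute value was 0.20, against 0.29 over all genes tested. Of the 10 members, 4 had positive and 6 negative values. Groups did not overlap for 1 member, which was lower in positive cells (Rbfox1), against 7.25% of all genes tested in that direction and 8.21% in the other.

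The precision of these comparisons allows a statement about size for the brightest probe set of each gene. Its 95% interval over all arrays lay within 2-fold in both directions for 9 of 10 members, as for 47.6% of all genes tested. Srrm4 was the exception. Of the 26 tested member probe sets, 20 had such an interval. Dimmer ones of Rbfox1, Rbfox3, Elavl3 and Srrm4 did not, among them Rbfox1 1455358_at (0.1 to 1.31) and Rbfox3 1427286_at (0.12 to 1.7). This fit did not account for the spike-in batch. Standard errors were larger within its higher side (Ptbp1 0.41, Celf3 0.53), and no bound is given there. The smallest log2 difference called in any gene was 0.96. No smaller shift passed in any gene with 3 arrays per group, and a p above the threshold does not show equal levels.

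**Figure D1:**
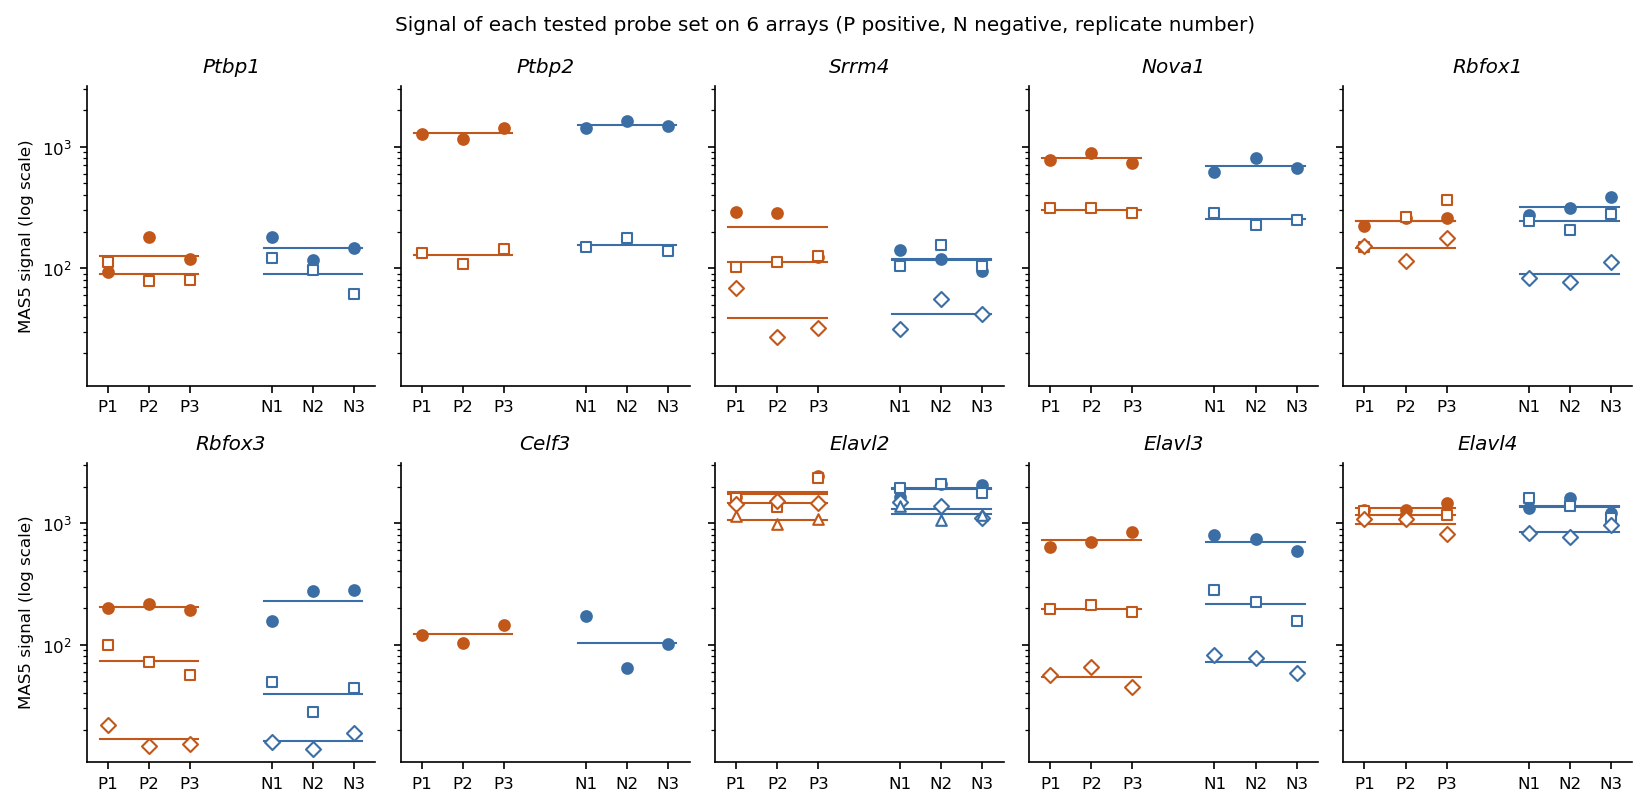
MAS5 signal (log scale) of the 26 tested probe sets of the 10 members on the 3 positive (P1 to P3, orange) and 3 negative (N1 to N3, blue) arrays, with lines at the geometric mean of each probe set and group. Filled circles mark the probe set of highest mean signal, and open squares, diamonds and triangles the others of the gene. Positive and negative values overlap for most probe sets. The filled points of Srrm4 are high on P1 and P2 alone.

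Ptbp1, the repressor of the progenitor state, was taken first. Its brighter probe set, 1424874_a_at, had signals of 93.4, 182 and 119.8 on positive arrays and 181, 116 and 147 on negative arrays. The positive range held the whole negative range, with its lowest value on positive replicate 1. The log2 difference was -0.20 (SE 0.29, 95% interval -0.83 to 0.43, n = 3 arrays per group, limma adjusted p = 0.827). A second probe set, 1450443_at, had 113, 78.8 and 80.4 against 122, 95.8 and 61.2, with a difference of 0.00 (95% interval -0.70 to 0.69). The third, 1458284_at, stayed under the filter on all 6 arrays, at 0.856 to 9.32, and was not tested.

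Ptbp2, the neuronal paralogue, differed by slightly more than its standard error and did not pass either. Probe set 1423470_at had 1281, 1162 and 1418 on positive arrays and 1415, 1624 and 1484 on negative arrays. Positive replicate 3 reached just above the lowest negative value, so the groups overlapped by that single array. The difference was -0.23 (SE 0.20, 95% interval -0.66 to 0.20, limma adjusted p = 0.695). The dimmer probe set, 1423471_at, gave -0.27 (95% interval -0.81 to 0.26) with 132, 109 and 144 against 150.4, 176 and 138. Both probe sets of Ptbp2 thus had slightly lower means in positive cells and neither passed.

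Progenitor Ptbp1 was then set against the neuronal regulators within each array. Levels of different probe sets cannot be compared, but a fixed offset between them cancels when the same log2 difference is compared between arrays. Ptbp1 minus the mean of the 9 other members was -2.43, -1.48 and -2.12 on positive arrays and -1.44, -2.12 and -1.72 on negative arrays. Group means were -2.01 ± 0.48 and -1.76 ± 0.34 (SD, n = 3), so the difference of -0.25 was smaller than the spread within either group. Nearly all of that spread came from Ptbp1, which ran from 6.54 to 7.51 in log2 signal, while the mean of the other 9 stayed between 8.92 and 9.03. Ptbp1 minus Ptbp2 was -3.78, -2.67 and -3.57 on positive arrays against -2.97, -3.80 and -3.33 on negative arrays. Here the group means differed by 0.03, and the 4 pairings of tested Ptbp1 and Ptbp2 probe sets gave 0.03 to 0.27. No p is given for these scores, since they were formed over chosen members.

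**Figure D2:**
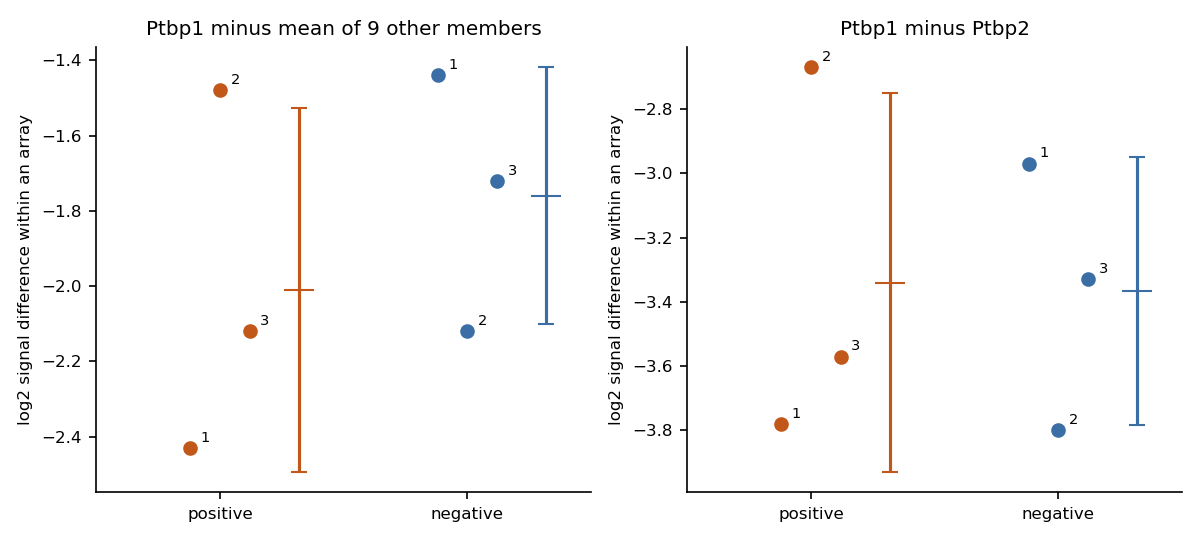
Log2 signal of Ptbp1 minus the mean log2 signal of the 9 other members (left) and minus Ptbp2 (right), 1 point per array labelled by replicate number, with mean and SD of each group of 3. The vertical axes do not start at 0. The ranges of the groups overlap in both panels, with group means of -2.01 and -1.76 on the left and -3.34 and -3.37 on the right.

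Srrm4, also called nSR100, activates neuronal microexons and had the largest difference among the brightest probe sets of the 10 members. Probe set 1425774_at had signals of 291, 287 and 124 on positive arrays and 142, 119 and 95.1 on negative arrays. Positive replicates 1 and 2 were high, while positive replicate 3 lay inside the negative range. The log2 difference was 0.90 (SE 0.33, 95% interval 0.19 to 1.60, unadjusted p = 0.0171, limma adjusted p = 0.331). The 2 high arrays are those of the lower spike-in side. Between positive replicate 3 and the 3 negative arrays the difference was 0.08 (SE 0.42, adjusted p = 1), and without positive replicate 3, when group and spike-in batch coincide, it was 1.30 and passed (limma adjusted p = 0.0225). The other Srrm4 probe sets did not share the pattern. Probe set 1435062_at had 102, 113 and 125 against 105, 156 and 105 (difference -0.08, 95% interval -0.66 to 0.50), and 1438523_x_at gave -0.10 (95% interval -1.05 to 0.85). The mean over the 3 probe sets differed by 0.24 (limma adjusted p = 0.768).

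Rest, a transcriptional repressor of neuronal genes that includes Srrm4 among its known targets, was looked at after its values were seen. It had 46.7, 50.2 and 44.1 on positive arrays and 69, 96.3 and 76.6 on negative arrays, so the groups did not overlap, as was true of 15.5% of all genes tested. The difference was -0.77 (SE 0.30, limma adjusted p = 0.372) and did not pass. Positive replicate 3 alone against the negative arrays gave -0.86 (SE 0.48, adjusted p = 1).

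Nova1, whose protein guides synaptic exons, had slightly higher means in positive cells at both probe sets. Probe set 1426938_at had 783, 881 and 739 against 620.5, 806 and 669, a difference of 0.20 (SE 0.20, 95% interval -0.23 to 0.63, limma adjusted p = 0.735). Probe set 1452245_at had 315, 311 and 283 against 282, 228 and 248, so its lowest positive value lay barely above its highest negative one. Its difference of 0.27 (95% interval -0.19 to 0.72) did not pass. Celf3, a neuronal member of the CELF family of splicing and translation regulators, has a single probe set with 119.7, 103 and 146 against 172, 64.3 and 101. Negative replicates 1 and 2 enclosed all positive values. The difference was 0.23 (SE 0.34, 95% interval -0.50 to 0.96), and it was -0.12 without negative replicate 2.

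The RBFOX proteins bind a short motif beside neuronal exons, and RBFOX3 is the NeuN antigen of maturing neurons. The differences of their probe sets had opposite signs within each gene, and none passed. For Rbfox1, the brightest probe set, 1438217_at, had 223, 259 and 259 on positive arrays and 273, 312 and 385 on negative arrays. All 3 positive values lay below all 3 negative ones, yet the difference of -0.38 (SE 0.21, 95% interval -0.84 to 0.09) had a limma adjusted p of 0.547. Probe set 1455358_at had the opposite order without overlap, at 152, 115 and 176 against 82.5, 76.6 and 112. Its difference was 0.71 (SE 0.28, unadjusted p = 0.0255, limma adjusted p = 0.450 over 27738 probe sets), and 0.98 (SE 0.45) with positive replicate 3 against the negative arrays. Another Rbfox1 probe set, 1418314_a_at, had 148, 264 and 367 against 245, 207 and 280.1 and differed by 0.00 (95% interval -0.66 to 0.66). The last, 1447735_x_at, exceeded the filter on 2 arrays and was not tested.

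Rbfox3 also had differences of both signs. Probe set 1436450_at, the brightest, had 202, 214 and 193 on positive arrays and 157, 274 and 281 on negative arrays, with negative values on either side of the positive ones (difference -0.18, SE 0.25, 95% interval -0.73 to 0.37). Probe set 1427286_at had 98.6, 72.5 and 56.0 against 49.4, 28.0 and 43.7, all positive values above all negative ones. Its difference was 0.91 (SE 0.37, unadjusted p = 0.0279, limma adjusted p = 0.462). Positive replicates 1 and 2 held its highest values, and positive replicate 3 against the negative arrays gave 0.51 (SE 0.61). The dimmest, 1456149_at, had 13.9 to 21.7 on the 6 arrays (difference 0.07, 95% interval -1.17 to 1.32). The platform annotation does not say which transcript ends these probe sets read. With the tested probe sets of each gene averaged, Rbfox1 differed by 0.11 and Rbfox3 by 0.27, the reverse of their brightest probe sets, and neither passed (limma adjusted p = 0.885 and 0.757).

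**Figure D3:**
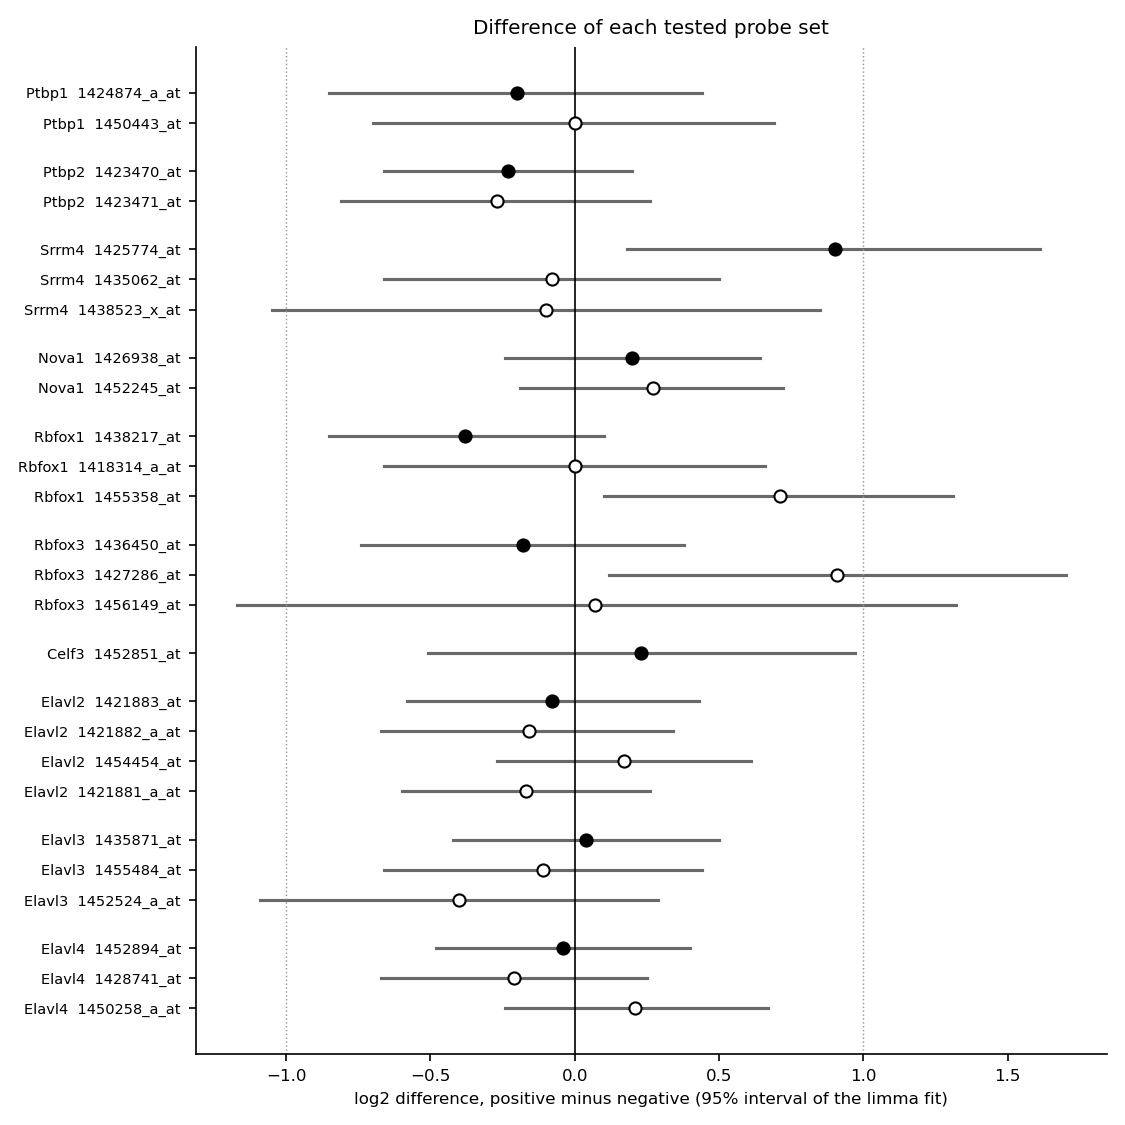
Log2 difference, positive minus negative, of each of the 26 tested probe sets with its 95% interval from the limma fit over 27738 probe sets. Filled points mark the brightest probe set of a gene, and dotted lines mark 2-fold. The intervals of Srrm4 1425774_at, Rbfox1 1455358_at and Rbfox3 1427286_at lie above 0 and the other 23 include 0.

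The neuronal Hu genes Elavl2 (HuB), Elavl3 (HuC) and Elavl4 (HuD) encode proteins that bind AU-rich elements and stabilise neuronal messages. By brightest probe set over all 6 arrays, their differences were the smallest of the 10 members. That order did not hold with probe sets averaged, where Elavl3 was -0.16 and Ptbp1 -0.10. Elavl4 1452894_at had 1276, 1278 and 1454 on positive arrays and 1323, 1611 and 1217 on negative arrays. Its difference was -0.04 (SE 0.20, 95% interval -0.48 to 0.40, limma adjusted p = 0.962), and its other probe sets gave -0.21 and 0.21. Elavl3 1435871_at had 641, 697 and 846 against 806, 734 and 589, a difference of 0.04 (SE 0.21, 95% interval -0.41 to 0.49, limma adjusted p = 0.967). Dimmer Elavl3 probe sets gave -0.11 (1455484_at) and -0.40 (1452524_a_at, 95% interval -1.09 to 0.29).

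Elavl2 1421883_at had 1626, 1518 and 2436 on positive arrays and 1640.2, 2109.7 and 2045 on negative arrays. Positive replicate 3 was the highest of the 6 arrays and positive replicates 1 and 2 the lowest. The difference over all arrays was -0.08 (SE 0.24, 95% interval -0.59 to 0.43, limma adjusted p = 0.930), and 0.34 (SE 0.25) for positive replicate 3 against the negative arrays. Of the other Elavl2 probe sets, 1421882_a_at repeated the order within the positive group, at 1618, 1351 and 2336, while 1454454_at (1429, 1515 and 1459.7) and 1421881_a_at (1144, 983 and 1077) did not. The 4 tested differences ran from -0.17 to 0.17. Probe set 1433052_at was under the filter on all 6 arrays, at 0.472 to 5.03.

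Across the 29 member probe sets, 26 were tested and 0 passed by limma, against 0.537% of all probe sets tested (0.187% higher and 0.35% lower in positive cells). There were 3 with an unadjusted p under 0.05, or 11.5% against 9.43% of all, and 4 whose groups did not overlap, or 15.4% against 13.9%. Of these, 3 were higher and 1 lower in positive cells, where 7.96% and 5.98% of all were. The 95% interval lay within 2-fold for 20 of 26, against 38.5% of all. Shares past a p and shares without overlap lay near those of all probe sets, so the single non-overlapping members named above do not stand out from the array as a whole.

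Because the spike-in batch split the positive group, each member was also compared within its higher side, with positive replicate 3 against the 3 negative arrays. The variance then comes from the negative arrays, and the lone positive array is taken to share it. No member passed there (limma, 0 at an unadjusted p under 0.05), and the median of the 10 differences was 0.08. The largest was then that of Celf3, 0.49 (SE 0.53), and Srrm4 fell to 0.08. Elavl2 and Elavl4 changed sign, to 0.34 and 0.08, and Ptbp1 stayed at -0.28 (SE 0.41). Where the spike-in batch is used as a block, the group difference also rests on positive replicate 3 against the negative arrays. The blocked differences given below are therefore those of this same comparison. The part of the spike-in batch in these differences was not tested beyond it.

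**Figure D4:**
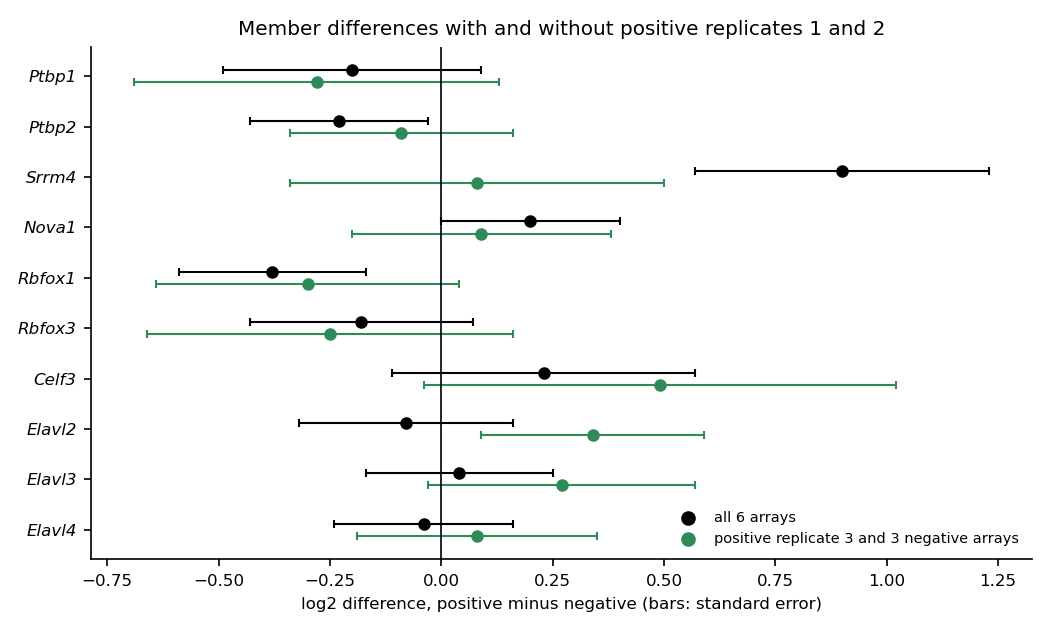
Log2 difference, positive minus negative, with its standard error for the brightest probe set of each member, over all 6 arrays (black) and over positive replicate 3 and the 3 negative arrays (green). Srrm4 stands at 0.90 in black and 0.08 in green, and the other members lie between -0.38 and 0.49 in both.

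The surrounding RNA-binding machinery was examined with lists of named genes. The 19 related regulators were other ELAVL, RBFOX, NOVA, PTBP, SRRM and CELF genes, the muscleblind, KHDRBS and Musashi families and Qk. Of them 18 were tested and 0 passed by limma, with a median difference of -0.11. An unadjusted p under 0.05 was found for 1 of the 18, against 10.8% of all genes tested. The brightest were Khdrbs1, which encodes the splicing regulator SAM68 (-0.40, SE 0.24), and Celf4 (-0.58, SE 0.28). Khdrbs1 was 0.03 after quantile normalization, -0.02 with the spike-in batch blocked and 0.41 when probe sets with the suffixes _s_at, _x_at and _a_at were left out. Celf4 was 0.09 with that batch blocked and passed without positive replicate 3 (-0.91, limma adjusted p = 0.0131), so no direction is given for either. Of 37 general splicing factors (hnRNP and SR proteins and their partners), 34 were tested and 0 passed. An unadjusted p under 0.05 was found for 3 of the 34, against the same 10.8%, and 26 of 34 had negative values. Their median was -0.21, but 0.08 after quantile normalization and 0.05 with that batch blocked, so no direction is given for them. Hnrnpab had 3717, 3729 and 6937 on positive arrays and 8299.5, 7157 and 5838 on negative arrays, and Sf1, splicing factor 1, had 3294, 2921 and 7408 against 6427, 7912 and 5845. For both, positive replicate 3 lay within the negative range and the other positive arrays below it. Both passed without positive replicate 3 (-0.92 and -1.11, limma adjusted p = 0.00851 and 0.00394). With that batch blocked they differed by -0.02 and 0.15.

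Of 7 upstream and target genes, 6 were tested and 0 passed by limma. Of the 6, 2 had an unadjusted p under 0.05, Rest and Gap43, where 10.8% of all genes tested had one. Gap43, a growth cone gene whose message is a known target of HuD, had 1550.5, 1795 and 1583 on positive arrays against 1209, 869.9 and 1081. The groups did not overlap, as for 15.5% of all genes tested, and the difference of 0.65 (SE 0.21, limma adjusted p = 0.242) missed the threshold. With positive replicate 3 against the negative arrays it was 0.60 (SE 0.28). Pkm, whose alternative exons PTBP1 regulates, differed by 0.25 (SE 0.19).

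Markers of neurons and progenitors give the setting for the neuronal regulators. Of 12 neuron markers 0 passed by limma and 4 had an unadjusted p under 0.05, where 10.8% of all genes tested had one. Their median was -0.26, or -0.02 after quantile normalization. Summed over the 12 genes, positive arrays had 16648 to 25599 and negative arrays 22149 to 25417. The brightest, Tubb3 and Dcx, which encode a tubulin and a microtubule-binding protein of young neurons, differed by -0.30 (SE 0.27) and -0.45 (SE 0.28). Both signs turned after quantile normalization (0.26 and 0.03) and with the spike-in batch blocked (0.26 and 0.10), and Tubb3 passed without positive replicate 3 (-0.58, limma adjusted p = 0.0451). Chosen after their values were seen, Nefm (0.76) and Mapt (0.48) had all positive values above all negative ones, and Map2 (-0.73) and Ina (-0.43) all below. Groups did not overlap for 15.5% of all genes tested, and these 4 did not pass (limma adjusted p = 0.125, 0.398, 0.219 and 0.463). Of 12 progenitor markers 2 fell in positive cells, against 0.639% of all genes tested, and 0 rose. They were Pax6 (-2.22, SE 0.34, limma adjusted p = 0.00696) and Fabp7, of radial glia (-1.18, SE 0.26, limma adjusted p = 0.0494). Pax6 lost its call with no filter and with eBayes run without a trend (adjusted p = 0.110 in each), and kept it without any 1 array. Fabp7 lost its call under median centring, no filter, no trend and the replicate block (adjusted p = 0.266, 0.236, 0.246 and 0.0728). It kept its call without positive replicate 3 (-1.45), lost it without any other array (-1.20 to -0.99), and had -0.62 (adjusted p = 0.374) with the spike-in batch blocked. The 12 progenitor markers had a median of -0.27, and -0.07 with that batch blocked, and 3 had positive differences (Hes1 0.89, Notch1 0.30 and Top2a 0.30, the last without overlap, all named after their values were seen). Hes1 was dim, at 9.75, 17.7 and 16.5 against 14.2, 2.98 and 10.6 (SE 0.80). It was above the filter on 2 positive arrays and 1 negative array. Progenitor markers summed to 5518 to 8342 in positive cells against 9379 to 11133 in the reference. Such a sum is led by its brightest genes, here Fabp7 (1393, 1242 and 2346 against 3568, 3471 and 3772) and Vim. Sox2 (-0.22), Nes (-0.01) and Ccnd1 (-0.12) differed by less than their standard errors. Slc1a3 (-0.88, SE 0.36, without overlap), Vim (-0.57, SE 0.24), Hes5 (-0.53, SE 0.25) and Mki67 (-0.32, SE 0.23) were also lower. They did not pass (limma adjusted p = 0.388 to 0.639). Of the 12 markers, 4 had an unadjusted p under 0.05, where 10.8% of all genes tested had one. Groups did not overlap for 3 lower and 1 higher, against 7.25% and 8.21% of all genes tested.

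Ptbp1 is made in many non-neural cells, and several markers of such cells were unequal between the groups. Of 9 erythroid and 10 macrophage markers, 9 in all passed the filter, and 7 of these exceeded it on at most 1 positive array. They entered the test through the negative arrays, so no count of calls is given for them. Hbb-y, an embryonic globin chosen after its values were seen, was above the filter on all arrays. It had 331, 273 and 574 on positive and 9974, 12429 and 6565 on negative arrays (-4.65, SE 0.30). Fcgr3, the only other tested marker above the filter on all arrays, had 15.3, 13.6 and 20.9 against 51.5, 22 and 15.1. Its groups overlapped, and its difference of -0.66 (SE 0.57, limma adjusted p = 0.699) did not pass. For genes dim on all 3 positive arrays, those arrays were set at the 40th percentile of their signals where they lay below it, which gives bounds. By these Hba-x was at least 56.1-fold lower, Hbb-bh1 at least 55.0-fold, Csf1r at least 15.4-fold, Tyrobp at least 11.5-fold and Aif1 at least 3.64-fold. Alas2 had 0.916, 0.679 and 14.9 on positive arrays, the first 2 below the floor, and 109, 80 and 47.1 on negative arrays. Erythroid markers summed to 306 to 614 in positive cells against 7378 to 14459.6, sums that were mostly Hbb-y. The globin gene Hba-a1 stayed under the filter, at 12.7, 9.77 and 8.18 against 3.71, 11 and 4.24. Hba-a2, outside the list, was bright (mean log2 signal 11.27) and differed by -0.13. Macrophage markers summed to 45.9 to 56.0 against 376 to 816. None of 8 endothelial markers passed the filter, with sums of 52.6 to 63.9 against 24.9 to 64.9. The part of these cells in the signal of Ptbp1 was not tested.

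**Figure D5:**
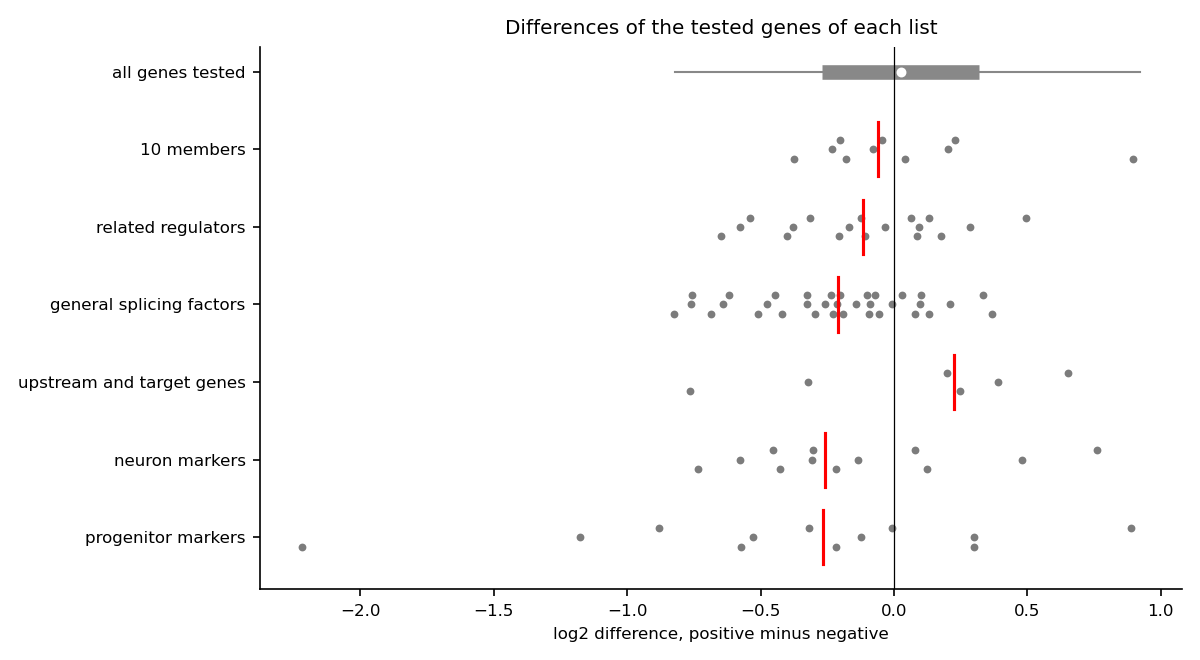
Log2 difference, positive minus negative, of the tested genes of each list (points) with the list's median (red line). For all 12047 genes the white point is the median, the thick bar spans the 25th to 75th percentile and the thin line the 5th to 95th. The 10 members, with a median of -0.06, lie between -0.38 and 0.90, and the progenitor markers reach -2.22 (Pax6).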

How the data were processed

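The authors deposited 1 table of intensity values for 45101 probe sets on 6 arrays, on a linear scale. Per the submitters' processing notes MAS5, limma and R 2.14.2 were used, with roles and other versions not given in the sources used here. Each gene was named through the platform annotation, in which 34957 probe sets had 1 symbol, 920 several and 9160 none listed. A floor of 1 was applied before log2. Probe sets above the 40th percentile of their array on at least 3 arrays were tested, 27738 in all, and the brightest stood for each of 12047 genes. The test was limma 3.58.1 under R 4.3.3 (lmFit, eBayes with a trend, two-sided, 4 residual degrees of freedom, Benjamini-Hochberg adjustment, threshold 0.05), over genes and over probe sets. The fit was tested on simulated data with changes larger than those of any member and without a batch. Averages of signals are geometric means. Detection calls and probe sequences were not used here.

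The members and lists were chosen with earlier results of these data known. By rule, named genes were all members and, of every other list, up to 3 genes each way past the threshold or else its 2 brightest. The remaining progenitor markers, Rest, Nefm, Mapt, Map2, Ina, Hbb-y, Fcgr3, Hba-a1 and Hba-a2 were named outside this rule. Alternatives were other scalings, filters, a pseudocount of 32, probe set choices, blocks and arrays left out. Plots used matplotlib 3.10.9 and Python 3.11.15.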

Additional observations from a re-analysis of the deposited data

How the results depend on the processing

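The count of members past the threshold was 0 by gene and by probe set under all alternatives run except without positive replicate 3, where it was 1, Srrm4 1425774_at (range 0 to 1 over arrays left out, for both counts). Ptbp1 ranged from -0.46 to 0.02 without 1 array, with its sign turned at 0.02 without positive replicate 1, and was 0.00 when probe sets with the suffixes _s_at, _x_at and _a_at were left out. Signs turned for Elavl2 at 0.19 and Elavl4 at 0.16 under quantile normalization, and at 0.34 and 0.08 within the higher side of the spike-in batch. Blocking that batch gave the same values, since it rests on the same lone positive array. With probe sets averaged, Elavl3 was -0.16, Rbfox1 0.11 and Rbfox3 0.27. Without 1 array the ranges were -0.29 to 0.05 for Elavl2, -0.09 to 0.14 for Elavl3, -0.13 to 0.07 for Elavl4 and -0.12 to 0.59 for Celf3. Nova1 and Ptbp2 kept their sign in all alternatives, as did Srrm4 (0.69 to 1.30 without 1 array). The cause of these changes was not tested. Ptbp1 against the 9 other members ranged from -0.52 to -0.04 without 1 array and Ptbp1 against Ptbp2 from -0.30 to 0.25.

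Over all genes 128 passed, against 19 with no filter, 42 without a trend, 34 with the spike-in batch blocked, 38 within its higher side and 58 to 419 without 1 array. Same-numbered replicates of the groups had deviations correlated at 0.14, -0.10 and 0.03, against -0.16 to 0.12 for differently numbered ones. With 3 arrays per group these values cannot tell whether the numbers pair the samples. With the replicate number as a block, 127 genes and 0 members passed, and Ptbp1 differed by -0.20. Precision is limited by 3 arrays per group. Member probe sets under the filter were not tested.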

Other observations

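Probe sets of 1 member gene were set against each other within an array, in 24 pairs that share probe sets. In 4 of the 24, or 16.7%, the within-array log2 differences of the groups did not overlap, against 12.1% of the 19634 such pairs over all genes. Rbfox1 1438217_at minus 1455358_at was 0.56, 1.17 and 0.55 on positive arrays and 1.73, 2.02 and 1.78 on negative arrays, a group difference of -1.08. Positive replicate 3 lay with the other positive arrays here. Rbfox1 1418314_a_at minus 1455358_at gave -0.70, Rbfox3 1427286_at minus 1456149_at gave 0.84, and Elavl3 1435871_at minus 1452524_a_at gave 0.44. Rbfox3 1456149_at was close to the filter, at 13.9 to 21.7 where the 40th percentiles of the arrays were 10.2 to 15.8. These pairs were noticed in the data and have no test. A within-array difference of this kind does not say which probe set of a pair differs between the groups.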
